A study of Arabidopsis thaliana with 9 samples.

Results

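The 4 genes described here are *HY5* (AT5G11260), *HYH* (AT3G17609), *COP1* (AT2G32950) and *SPA1* (AT2G46340), taken by their locus identifiers out of 33602 genes, together with the 3 alternative splicing bins and 23 introns that the tables list for them. RNA-seq was carried out on whole *Arabidopsis thaliana* plants of the Columbia ecotype in 3 genotypes with 3 libraries each: *prmt5* (the prmt5-5 allele of the gene for the Type II arginine methyltransferase PRMT5), *prmt4a;4b* (a double mutant made by crossing T-DNA insertion lines of the Type I enzymes PRMT4a and PRMT4b) and wild type (WT). All plants grew on agarose medium in continuous light at 22 °C after 4 days of cold in the dark, and were harvested after 15 days by the sample labels and 10 days by the methods. The same 3 WT libraries served both mutants, so the 2 comparisons with WT are not independent of each other. No source states that the replicates came from separate sowings, and the p-values measure the spread between these libraries.

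HY5 and HYH are bZIP transcription factors that bind DNA elements with an ACGT core and promote the development of seedlings in the light. COP1 is a RING-type E3 ubiquitin ligase that acts with SPA proteins such as SPA1 on a CUL4-DDB1 scaffold and sends HY5, HYH and other light-signalling factors to the proteasome, an activity that photoreceptors repress in the light. These regulators act to a large extent through protein stability, which mRNA levels do not report, and HY5 also binds promoters of light-responsive genes, its own among them.

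Gene reads per library ranged between 31917097 and 39904677 in *prmt5*, between 28137176 and 29706081 in *prmt4a;4b* and between 25029646 and 31835579 in WT. In *prmt4a;4b* the targeted genes *PRMT4A* and *PRMT4B* fell (log2 changes of -2.84 and -3.97), whereas *PRMT5* reads remained in *prmt5* (log2 change 0.27, adjusted p = 0.138), so that read counts of *PRMT5* do not check that label. In *prmt5* *PRMT4A* was also lower than in WT by edgeR (log2 change -0.66, adjusted p = 0.00645). The log2 change of *PRMT4B* there was 0.002 (adjusted p = 0.993). Plastid-encoded transcripts took 0.604 to 2.1% of gene reads in *prmt5*, 0.869 to 3.94% in *prmt4a;4b* and 0.323 to 0.58% in WT. Of the 5 root markers 3 were higher in *prmt5* than in WT, against 11.9% of all genes, and 1 was higher in *prmt4a;4b*, against 13.8%, and their summed normalized counts were 4683 to 6243 in *prmt5*, 3140 to 4590 in *prmt4a;4b* and 2845 to 4479 in WT. The summed counts of the 4 seed markers were 182 to 5410 in *prmt5*, 137 to 252 in *prmt4a;4b* and 593 to 1249 in WT, with the highest value in replicate 1 of *prmt5*. Those of the 4 green leaf markers were 932124 to 1254119 in *prmt5*, 731025 to 859581 in *prmt4a;4b* and 770728 to 887581 in WT, as in green plants, and the 5 floral markers stayed at or below 184. The leaf markers did not move together. *LHCB2.1* was higher in both mutants (log2 changes 0.65 and 0.77) and *CA1* lower in *prmt4a;4b* (-0.73). These calls are 25% of the leaf list in *prmt5* and 50% in *prmt4a;4b*, against 26.1% and 25.8% of all genes. The part of plastid reads, root tissue and seed transcripts in the results was not tested, and in RNA of whole plants fewer cells of a type and less RNA per cell cannot be told apart.

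The splicing results turn on a pair of sequences, which are shown first (TAIR10 coordinates of the tables, read from the RefSeq reference TAIR10.1). *HYH* lies on the plus strand of chromosome 3 (chr3:6023866-6024698), and its 3 alternative bins make up its first intron and the bases just after it (chr3:6024020-6024167, shown with 15 exon bases on either side). The authors' event class for all 3 bins is only "warning", so what each bin stands for is read here from the RefSeq transcripts. Capitals mark the GT of the donor and, in order, the AG of the 3 acceptors.
HYH intron 1 region: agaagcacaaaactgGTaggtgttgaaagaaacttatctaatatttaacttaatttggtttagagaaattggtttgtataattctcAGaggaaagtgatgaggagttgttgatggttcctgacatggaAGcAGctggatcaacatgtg
The first acceptor closes the shortest intron, 73 bases long. The second lies 42 bases further and the last another 3 bases further, so that these form a tandem. Against the first acceptor, use of the second leaves out 14 codons and use of the last 15 codons, in either case without a shift of the reading frame. The 4 RefSeq transcripts of *HYH* represent each choice, with coding sequences of 450 bases (first acceptor), 408 bases (second acceptor), 405 bases (last acceptor) and 363 bases (intron retained, with a start codon further downstream). If translation entered the retained intron from the usual start, a TGA stop codon would begin at its base 9.
The other sequence is the last of the 12 introns of *COP1*, I012, 111 bases long, on the plus strand of chromosome 2 (chr2:13983001-13983111) between the last coding exons. Capitals mark its GT and AG ends.
COP1 intron I012: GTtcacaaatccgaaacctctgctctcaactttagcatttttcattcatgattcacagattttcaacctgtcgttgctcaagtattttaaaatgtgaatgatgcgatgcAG
Its length is a multiple of 3, and read on in the frame of the upstream exon it holds a TGA stop codon that begins at base 49.

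*HYH* was the member that changed in both mutants, and it fell in each. Its normalized counts were 127, 260 and 248 in the *prmt5* libraries, 188, 138 and 222 in the *prmt4a;4b* libraries and 491, 414 and 417 in the WT libraries. Every mutant library was below every WT library, and the libraries of the mutants overlapped each other. The share of all genes whose mutant libraries separate from WT was not counted, here or for the genes below. The log2 change was -1.09 ± 0.23 (SE) in *prmt5* over WT, a fold of 0.481, with an adjusted p of 0.00525 in edgeR's quasi-likelihood test over all genes. It was -1.27 ± 0.18 in *prmt4a;4b* over WT, a fold of 0.414, with an adjusted p of 0.000428. A gene was counted as changed where its adjusted p was below 0.10 and its log2 change exceeded 0.58 in size. *HYH* was thus 1 of the 4 members called in *prmt5*, where 26.1% of all genes tested changed (11.9% higher and 14.2% lower), and 1 of 2 members called in *prmt4a;4b*, where 25.8% changed (13.8% higher and 12.0% lower). Replicate 1 of *prmt5*, the library with the most seed marker counts, held the lowest *HYH* value, and without it the log2 change was -0.83 and still met both limits.

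*HY5*, the best known of these light-signalling factors and the closest relative of HYH among the members, rose in *prmt4a;4b*, and its difference from WT in *prmt5* did not pass the test. Its normalized counts were 788, 606 and 560 in *prmt5*, 954, 796 and 977 in *prmt4a;4b* and 624, 536 and 513 in WT. The *prmt4a;4b* libraries were all above the WT libraries, while those of *prmt5* overlapped WT. The log2 change was 0.71 ± 0.13 in *prmt4a;4b* over WT (adjusted p = 0.00175), a fold of 1.63. In *prmt5* over WT it was 0.18 ± 0.15 (adjusted p = 0.400), and an interval of 2 SE on either side reached from -0.13 to 0.48. The call in *prmt4a;4b* was lost in 1 of 14 alternatives, in which the 3 libraries with more than 2% plastid reads were left out and 1 *prmt4a;4b* library remained (log2 change 0.50, adjusted p = 0.0627).

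**Figure D1:**
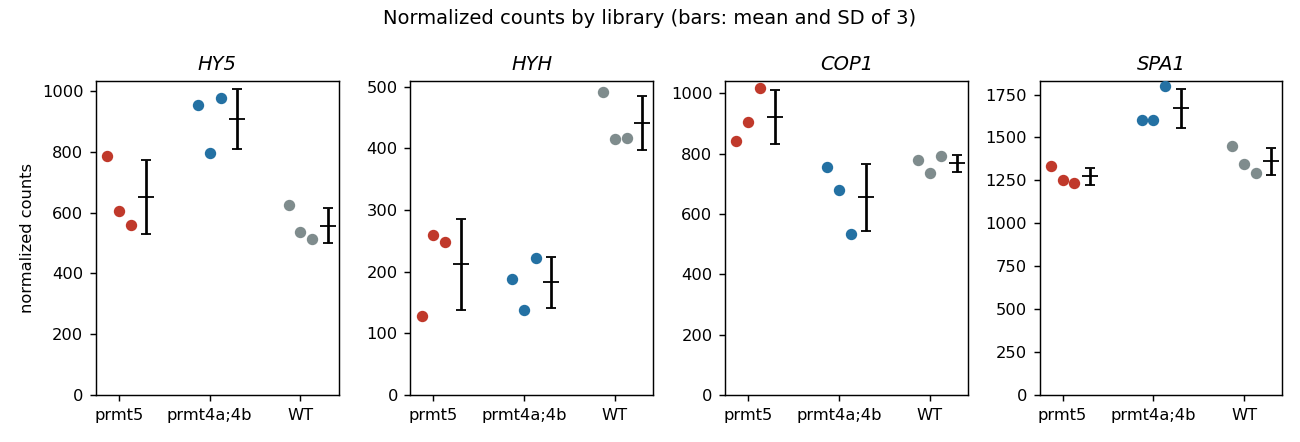
Normalized counts (vertical axes, each from 0) of *HY5*, *HYH*, *COP1* and *SPA1* in the 3 libraries of *prmt5*, *prmt4a;4b* and WT, left to right, with points for libraries and black bars for the mean and SD. All 6 mutant libraries lie at 127 to 260 for *HYH*, below the WT libraries at 414 to 491, and the *prmt4a;4b* libraries stand highest for *HY5* and *SPA1* and reach lowest for *COP1*.

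*COP1*, the ubiquitin ligase, was called in neither mutant. Its normalized counts were 840, 905 and 1016 in *prmt5*, 754, 677 and 535 in *prmt4a;4b* and 778, 737 and 790 in WT. The *prmt5* libraries were all above the WT libraries, and those of *prmt4a;4b* overlapped WT. The log2 change was 0.22 ± 0.12 in *prmt5* over WT (adjusted p = 0.200, 2 SE interval -0.03 to 0.46) and -0.22 ± 0.14 in *prmt4a;4b* over WT (adjusted p = 0.238, 2 SE interval -0.50 to 0.06). Neither difference from WT passed the test.

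*SPA1*, the partner that strengthens COP1 activity, was also called in neither mutant. Its normalized counts were 1332, 1253 and 1233 in *prmt5*, 1604, 1603 and 1800 in *prmt4a;4b* and 1448, 1344 and 1294 in WT. All *prmt4a;4b* libraries were above the WT libraries, and those of *prmt5* overlapped WT. The log2 change in *prmt4a;4b* over WT was 0.30 ± 0.11, with an adjusted p of 0.0551 but a size below the limit of 0.58. In *prmt5* over WT it was -0.14 ± 0.12 (adjusted p = 0.371).

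**Figure D2:**
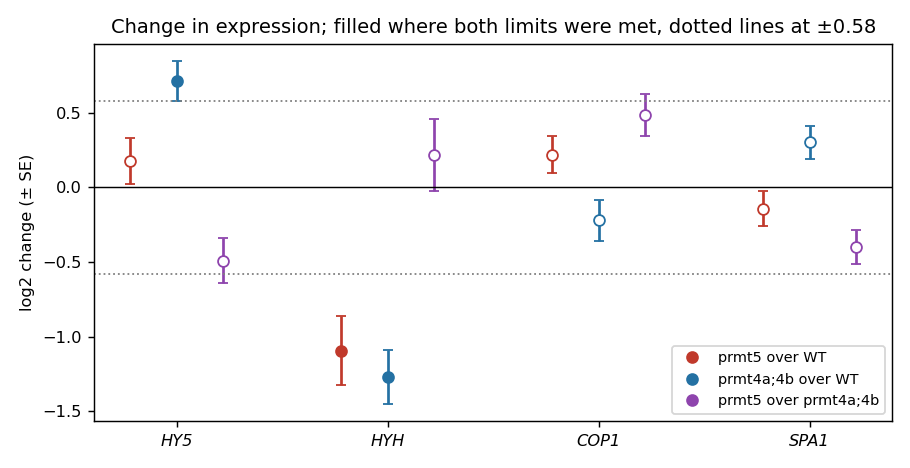
Log2 change (vertical axis) of the 4 members in *prmt5* over WT, *prmt4a;4b* over WT and *prmt5* over *prmt4a;4b*, with bars of 1 SE. Filled points met both limits and dotted lines mark 0.58 in either direction: *HYH* is filled in both mutants at -1.09 and -1.27, *HY5* in *prmt4a;4b* at 0.71, and no point of the direct comparison is filled.

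The mutants were compared directly in a fit of all 9 libraries, since a change called in only 1 of them does not show that they differ. *HY5* was lower in *prmt5* than in *prmt4a;4b* (log2 difference -0.49 ± 0.15, adjusted p = 0.0336), *COP1* was higher (0.48 ± 0.14, adjusted p = 0.0267) and *SPA1* was lower (-0.40 ± 0.11, adjusted p = 0.0244). For these 3 genes the libraries of the mutants did not overlap, but the share of all genes without such overlap was not counted. In this comparison 30.7% of all genes had an adjusted p under 0.10 at any size. None of the 3 differences reached 0.58, so 0 of the 4 members met both limits in edgeR and 0 in DESeq2, against 17.9% of all genes (9.44% higher and 8.51% lower), and 3 members had an unadjusted p under 0.05. *HYH* did not differ detectably between the mutants (0.21 ± 0.24, adjusted p = 0.547, 2 SE interval -0.27 to 0.70). The *HY5* difference met the size limit too without replicate 1 of *prmt5* (-0.66) and without replicate 2 of *prmt4a;4b* (-0.60), and *HYH* met both limits (0.85, adjusted p = 0.0319) in the 6 libraries with at most 2% plastid reads. The adjusted p of *HY5* was 0.115 without replicate 2 of *prmt5*, 0.122 without replicate 3 of *prmt5* and 0.102 without replicate 3 of *prmt4a;4b*. That of *COP1* was 0.122 without replicate 3 of *prmt5* and 0.137 without replicate 3 of *prmt4a;4b*, while that of *SPA1* was at most 0.0916 with any library left out. In the 6 libraries with at most 2% plastid reads the adjusted p was 0.101 for *HY5*, 0.0773 for *COP1* and 0.107 for *SPA1*.

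Levels can be compared between genes only per length, and were expressed as RPKM, reads scaled to exon length and to library size, over 902 exon bases of *HY5*, 741 of *HYH*, 2348 of *COP1* and 3799 of *SPA1*. In *prmt5* the order of the levels was *HY5* at 23.0 ± 4.24 (SD, n = 3), *COP1* at 12.5 ± 1.21, *SPA1* at 10.7 ± 0.436 and *HYH* at 9.10 ± 3.15 RPKM. In *prmt4a;4b* it was *HY5* at 32.1 ± 3.48, *SPA1* at 13.97 ± 0.950, *COP1* at 8.88 ± 1.51 and *HYH* at 7.83 ± 1.80 RPKM. In WT it was *HY5* at 19.7 ± 2.06, *HYH* at 18.9 ± 1.86, *SPA1* at 11.4 ± 0.659 and *COP1* at 10.4 ± 0.382 RPKM. *HYH* was thus next to *HY5* in WT, with values that overlapped those of *HY5*, and had the lowest mean in both mutants. In *prmt5* that place rests on replicate 1, since *HYH* was above *SPA1* in the other *prmt5* libraries, and in replicate 3 of *prmt4a;4b* *HYH* was above *COP1*. *SPA1* and *HYH* in *prmt5*, *COP1* and *HYH* in *prmt4a;4b*, and *HY5* and *HYH* in WT differed by less than the SD of the more variable gene of each pair.

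Ratios within a library do not depend on its depth or scaling. The ratio of *HY5* to *HYH* in reads per exon base was 5.08, 1.92 and 1.85 in *prmt5*, 4.18, 4.73 and 3.62 in *prmt4a;4b* and 1.04, 1.06 and 1.01 in WT. Every mutant library held more *HY5* than *HYH* RNA per base, and the 3 WT libraries lay close to equality. Replicate 1 of *prmt5* stood far above the other *prmt5* libraries for this ratio. The exact permutation test (two-sided) gave p = 0.10 for each mutant against WT, the smallest value that 3 against 3 libraries allow.

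The ratio of *COP1* to *SPA1* lay on opposite sides of WT in the mutants. It was 1.02, 1.17 and 1.33 in *prmt5*, 0.761, 0.684 and 0.481 in *prmt4a;4b* and 0.870, 0.887 and 0.988 in WT. The 3 genotypes did not overlap, with *prmt5* above WT and *prmt4a;4b* below it. The gap was narrow on the *prmt5* side, between 1.02 in *prmt5* and 0.988 in WT. How many other gene pairs separate in this way was not counted for any of the ratios. The ratio of *HY5* to *COP1*, the factor and the ligase that targets it, was 2.44, 1.74 and 1.43 in *prmt5*, 3.29, 3.06 and 4.75 in *prmt4a;4b* and 2.09, 1.89 and 1.69 in WT. Here *prmt4a;4b* lay above WT in every library and *prmt5* overlapped it. Exact permutation tests of these ratios (two-sided) also reached 0.10 at best, and gave p = 0.90 for *HY5* to *COP1* in *prmt5*.

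**Figure D3:**
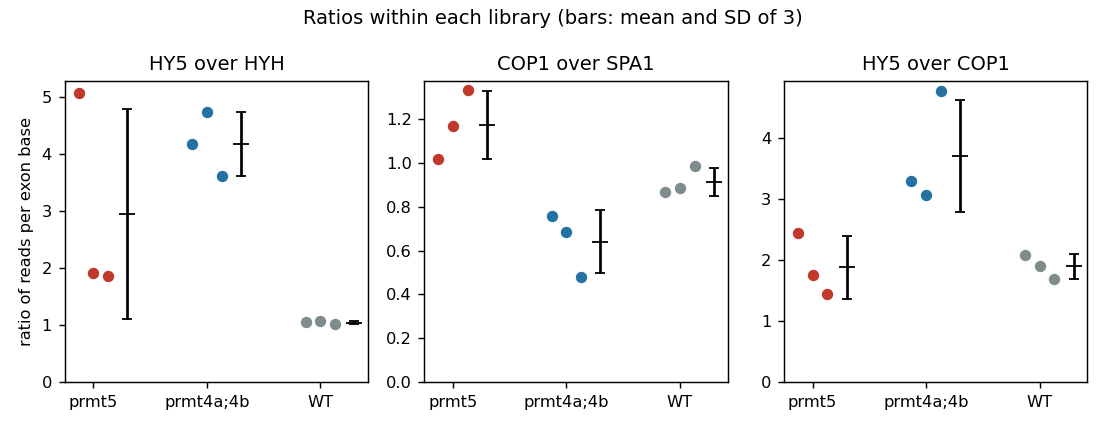
Ratios of reads per exon base within each library (vertical axes, from 0) for *HY5* over *HYH*, *COP1* over *SPA1* and *HY5* over *COP1*, with points for the libraries of *prmt5*, *prmt4a;4b* and WT and black bars for the mean and SD. For *HY5* over *HYH* the WT libraries lie at 1.01 to 1.06 and all mutant libraries at 1.85 or more, and for *COP1* over *SPA1* the 3 genotypes separate.

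The 3 *HYH* bins were tested for a change beyond that of the gene, by reads and by the splicing index, the read density of the bin over that of its gene. A bin was called with an adjusted p under 0.15 and log2 changes beyond 0.58 in both reads and index. The 73-base bin E004, covered only when the intron shown above is retained, had 7, 10 and 10 reads in *prmt5*, 9, 10 and 14 in *prmt4a;4b* and 23, 23 and 20 in WT. The 42-base bin E005, which the first acceptor includes, had 25, 90 and 74 reads in *prmt5*, 36, 22 and 39 in *prmt4a;4b* and 164, 114 and 94 in WT. The 3-base bin E006 of the tandem acceptor had 19, 94 and 78 reads in *prmt5*, 37, 23 and 33 in *prmt4a;4b* and 160, 119 and 99 in WT.

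The raw reads of all 3 bins were lower in every mutant library than in every WT library, as were those of the gene. Beyond the gene, the log2 ratio of the splicing index in *prmt5* over WT was -0.36 for E004, -0.09 for E005 and -0.11 for E006, and in *prmt4a;4b* over WT it was 0.52, -0.39 and -0.48. None passed 0.58, so 0 of the 3 bins were called in either mutant by edgeR or DESeq2, although 3 in *prmt5* and 2 in *prmt4a;4b* had an unadjusted p under 0.05 for their reads. Of all bins that met the density limits, 28.2% were called in *prmt5* and 32.4% in *prmt4a;4b*. The index of E004, the retained intron, was 0.605, 0.775 and 0.772 in *prmt4a;4b* and 0.460, 0.472 and 0.569 in WT, and the groups did not overlap. With the gene's own reads as offset, a test of the index itself, its log2 change was 0.52 ± 0.42 (adjusted p = 0.387), from 9 to 23 reads per library. All 3 bins are shorter than a read and collect every read that spans them, so their indexes are inflated, that of E006 the most. The index of E005 was 4.06 to 5.71 in WT. None of these indexes gives the fraction of transcripts that hold the bin, and they were compared between genotypes only.

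In *COP1*, reads in the last intron rose in *prmt5*. Intron I012, shown above, had 4, 27 and 17 reads in *prmt5*, 3, 1 and 0 in *prmt4a;4b* and 2, 4 and 2 in WT. Replicates 2 and 3 of *prmt5* were far above all other libraries, and replicate 1 of *prmt5* equalled the highest WT library. The log2 change in *prmt5* over WT was 2.33 ± 0.67 (adjusted p = 0.0117), with a log2 index ratio of 2.16. The call held in all 12 alternatives, with log2 changes of 1.86 to 2.74, and with the gene's reads as offset it was 2.1 (adjusted p = 0.0253). In the *prmt5* library with the most reads, I012 held 23.4 reads per 1000 *COP1* reads. I012 had too few reads for a test in *prmt4a;4b*.

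2 further *COP1* introns were called on few reads. I001, the first intron (339 bases), had 10, 4 and 7 reads in *prmt5*, 0, 0 and 1 in *prmt4a;4b* and 1, 3 and 0 in WT, and rose in *prmt5* (log2 change 2.22 ± 0.94, adjusted p = 0.0822). I002, the second intron (138 bases), had 3, 4 and 4 reads in *prmt5*, 3, 5 and 7 in *prmt4a;4b* and 0, 1 and 2 in WT, and rose in *prmt4a;4b* (2.41 ± 1.08, adjusted p = 0.134). Neither set overlapped WT in the mutant concerned. The call of I001 was lost in 7 of 11 alternatives and that of I002 in 8 of 10, which leaves I012 as the intron called under every setting. I006 and I008, with the most WT reads among *COP1* introns, were called in neither mutant.

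In all, 7 of the 23 introns of the members had enough reads to be tested in *prmt5* (on average 5 or more in 1 of the genotypes) and 5 in *prmt4a;4b*. Of these, *HY5* I001 in *prmt5* and *COP1* I006 in *prmt4a;4b* did not meet the density limits, and the others did. Of the introns tested, 2 were called in *prmt5*, both higher, and 1 in *prmt4a;4b*, also higher. Each of them reached the read minimum only through the mutant in which it was called, so the filter favoured higher calls. Summed reads were 48 in *prmt5* and 8 in WT for *COP1* I012, 21 and 4 for I001, and 15 in *prmt4a;4b* and 3 in WT for I002. Among all introns that met the density limits, 40.1% were called in *prmt5* (32.6% higher) and 25.3% in *prmt4a;4b* (15.1% higher). In *prmt5* 4835 were higher and 1106 lower, and in *prmt4a;4b* 1666 were higher and 1126 lower. Higher calls thus clearly prevailed in *prmt5* and did so less in *prmt4a;4b*. The same read minimum applied to all introns. The 3 introns of *HY5* had 2 to 21 reads per library and none was called. The 7 introns of *SPA1* and the single listed intron of *HYH* stayed below the read minimum.

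**Figure D4:**
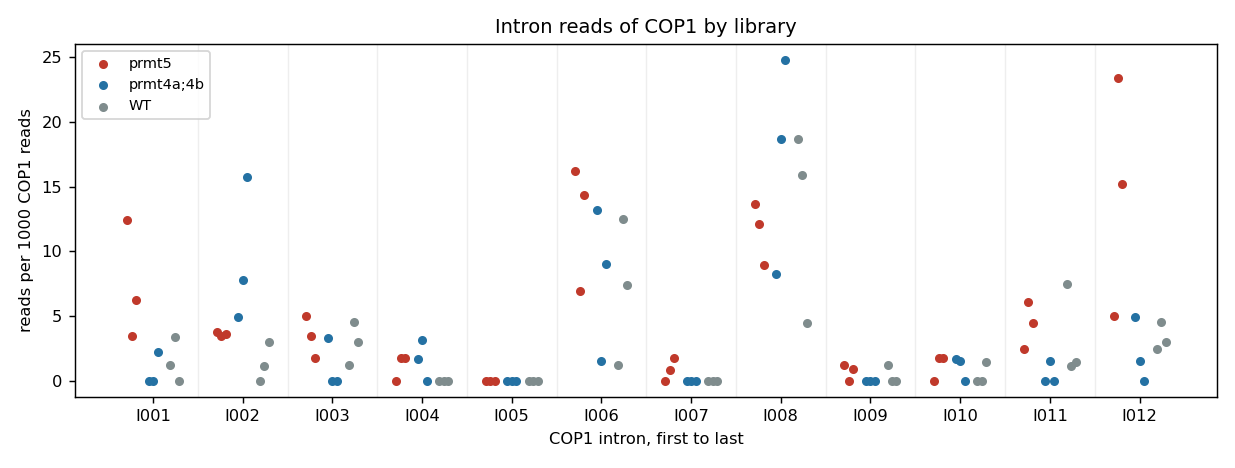
Reads in each of the 12 *COP1* introns per 1000 reads of the gene (vertical axis) in the libraries of *prmt5*, *prmt4a;4b* and WT, with introns ordered from the first to the last (horizontal axis) and 1 point per library. Of the *prmt5* libraries, 2 reach 23.4 and 15.2 at I012, where all *prmt4a;4b* and WT libraries stay at or below 4.94.

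Summed over its 12 introns, *COP1* had 59.7, 63.1 and 60.8 intron reads per 1000 gene reads in *prmt5*, 37.9, 35.8 and 51.8 in *prmt4a;4b* and 33.6, 43.2 and 23.7 in WT. The *prmt5* libraries were all above the others, while *prmt4a;4b* overlapped WT. For *SPA1* the sums were 7.06, 8.75 and 6.63 in *prmt5*, 3.87, 5.92 and 4.02 in *prmt4a;4b* and 4.01, 1.87 and 4.52 in WT. Every *prmt5* library was again above WT, on 9, 14 and 9 intron reads against 6, 3 and 5 in WT. *SPA1* reached an average of 10 intron reads only in *prmt5*, so that minimum favoured a higher sum there. For *HY5* the sums overlapped between all genotypes, at 37.3 to 58.1 in *prmt5*, 34.5 to 43.0 in *prmt4a;4b* and 24.8 to 72.9 in WT. A sum higher in every mutant library than in every WT library was common, seen in 40.5% of the genes with at least 10 intron reads in *prmt5* and 23.0% in *prmt4a;4b*. Over whole libraries intron reads were 1.98 to 2.1% of gene reads in *prmt5*, 1.56 to 1.76% in *prmt4a;4b* and 1.63 to 1.70% in WT.

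The surrounding pathway was followed in 6 lists of 61 genes, of which 58 were tested in *prmt5* and 57 in *prmt4a;4b*. In *prmt5* 4 rose and 7 fell, which is 19.0% of those tested against 26.1% of all genes, and in *prmt4a;4b* over WT 4 rose and 4 fell, 14% against 25.8%. The median log2 change over the listed genes was 0.02 in *prmt5* and -0.23 in *prmt4a;4b*, with -0.01 and 0.00 over all genes.

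Among 10 other subunits of the COP1-SPA and CUL4-DDB1 ligases, *COP10*, which encodes a ubiquitin-conjugating enzyme variant, rose in both mutants. Its normalized counts were 549, 428 and 405 in *prmt5*, 380, 424 and 357 in *prmt4a;4b* and 249, 247 and 254 in WT, with no overlap with WT (log2 change 0.84 ± 0.15 and adjusted p = 0.00262 in *prmt5*, 0.64 ± 0.14 and 0.00444 in *prmt4a;4b*). *DDB1A*, the adaptor of the scaffold, fell in *prmt5* by 0.66 on the log2 scale, and so did its partner *DDA1* by 0.63 (adjusted p = 0.0559), while *RBX1A*, the RING subunit, fell in *prmt4a;4b* by 0.76. The *DDA1* call was lost in 6 of 14 alternatives, with log2 changes up to -0.48 and adjusted p up to 0.202. The remaining subunits, *SPA2*, *SPA3* and *SPA4* among them, met the limits in neither mutant. Of 10 subunits of the COP9 signalosome, the complex that removes the NEDD8 modifier from cullins, *CSN6B* rose by 0.67 and *CSN3* fell by 0.67 in *prmt5*, and *CSN5B*, a copy of the catalytic subunit, fell by 0.78 in *prmt4a;4b*.

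B-box proteins bind HY5 or COP1 and raise or lower HY5 activity. Of 10 tested, *BBX20* rose in *prmt5* (1.58 ± 0.42, adjusted p = 0.0148), with 57.5, 83.8 and 69.1 normalized counts in *prmt5* against 11.6, 38.5 and 16.4 in WT, and *BBX24* fell there by 0.79. In *prmt4a;4b* *BBX21*, an activator of *HY5* transcription, rose (0.87 ± 0.17, adjusted p = 0.00228), with 2419.7, 2303 and 3212 normalized counts in *prmt4a;4b* against 1450.4, 1149 and 1768 in WT, and *BBX31* rose by 0.65. In the direct comparison *BBX20* was higher (1.43) and *BBX30* lower (-0.72) in *prmt5*. Of 9 photoreceptors and other COP1 substrates or regulators, only *HFR1*, a bHLH factor degraded through COP1, met the limits in *prmt5*, where it had 146, 133 and 84.5 normalized counts against 333, 267 and 350 in WT (-1.43 ± 0.22, adjusted p = 0.00103). None of the 9 met them in *prmt4a;4b* by edgeR or DESeq2, and 2 had an unadjusted p under 0.05. *HFR1* (-1.26) and *RUP2*, a repressor of the UV-B receptor UVR8 (-0.85), were lower in *prmt5* than in *prmt4a;4b*, and *LAF1*, a MYB factor of phytochrome A signalling, was called higher (1.39, adjusted p = 0.0572) at 21, 28 and 19 reads in *prmt5* and 3, 10 and 7 in *prmt4a;4b*. This *LAF1* call was lost in 6 of 17 alternatives, with adjusted p up to 0.446.

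HY5 is known to bind and activate genes of flavonoid synthesis. Of 10 such genes tested, 0 met the limits in *prmt5* by edgeR or DESeq2, with 1 at an unadjusted p under 0.05, and in *prmt4a;4b* *F3H*, flavanone 3-hydroxylase, fell by edgeR. DESeq2 called 2 of these genes lower in *prmt4a;4b*, and over the 14 alternatives 1 to 3 were called. *F3H* had 1165, 1605 and 1883 normalized counts in *prmt5*, 662, 490 and 399 in *prmt4a;4b* and 1271, 1194 and 1457 in WT. The *prmt4a;4b* libraries were below all others (-1.33 ± 0.17 over WT, adjusted p = 0.000249), and the direct difference of *prmt5* over *prmt4a;4b* was 1.58. *CHS*, chalcone synthase and a classical HY5 target, had a log2 change of 0.48 in *prmt5* with an adjusted p of 0.0253, within the size limit. In *prmt4a;4b* its log2 change was -0.01 (adjusted p = 0.977). The list's median log2 change was 0.11 in *prmt5* and -0.35 in *prmt4a;4b*, where 4 of the 10 had an unadjusted p under 0.05 in edgeR. There *TT7*, *FLS1* and *CHI*, also of flavonoid synthesis, had log2 changes of -0.53, -0.37 and -0.33, within the size limit. Their adjusted p values in edgeR were 0.0331, 0.0497 and 0.0881.

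Of 9 other HY5 targets, *SIG5*, a plastid sigma factor, fell in both mutants, with 557, 450 and 501 normalized counts in *prmt5*, 625, 381 and 579 in *prmt4a;4b* and 926, 876 and 669 in WT (-0.76 ± 0.15 and -0.64 ± 0.18). *ELIP2*, an early light-induced protein of the thylakoid, rose in *prmt5* (1.24 ± 0.23, adjusted p = 0.00272). *NRT2.1*, a nitrate transporter, was called lower in *prmt5* at low counts that overlapped WT, with 2, 6 and 0 reads in *prmt5* and 11, 4 and 32 in WT. *LHCB1.1*, an antenna protein with near-identical copies between which reads may be split, was called higher in *prmt4a;4b* (0.66 ± 0.18). *ELIP1*, *ELIP2* and *RBCS1A* were higher in *prmt5* than in *prmt4a;4b*, by 0.98, 1.60 and 0.71. For *RBCS1A* the libraries of the mutants overlapped, and the call was lost in 3 of 17 alternatives. Over all lists the direct comparison placed 8 genes higher in *prmt5* and 3 lower, which is 19.3% of the 57 tested, against 17.9% of all genes.

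**Figure D5:**
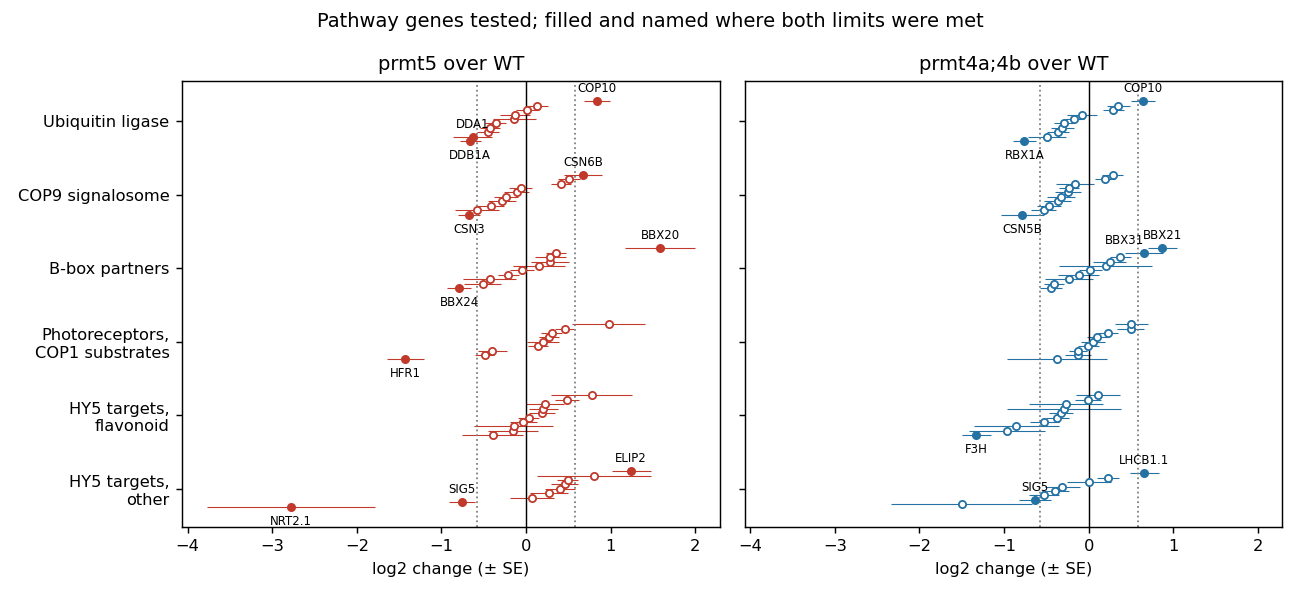
Log2 change with 1 SE (horizontal axes) of the listed pathway genes that were tested, in *prmt5* over WT (left) and *prmt4a;4b* over WT (right), grouped by list, with filled and named points where both limits were met and dotted lines at 0.58. *COP10* and *SIG5* are filled in both panels, to the right and to the left of 0, and 11 genes are filled in *prmt5* and 8 in *prmt4a;4b*.

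Across the 9 libraries the log2 levels of *HY5* and *SPA1* correlated at a Pearson r of 0.84, those of *COP1* and *SPA1* at -0.89 and those of *HY5* and *HYH* at -0.69. These values describe 9 libraries in 3 genotype clusters that share scaling, and no test was made of them. Among 15915 genes that averaged 100 or more normalized counts in some genotype, the patterns most like that of *HY5* were *SCPL11* (r = 0.98), *AT3G56840* (0.98) and *AT1G28310* (0.97). For *HYH* they were *TLP6* (0.99), the cytokinin receptor gene *AHK3* (0.98) and *ALDH6B2* (0.98), for *COP1* *AT3G05470* (0.97), *MAM1* (0.97) and *AT3G29320* (0.97), and for *SPA1* *AT2G29020* (0.99), *AT2G14910* (0.98) and *MGT3* (0.98). With Spearman's correlation only *AT3G56840* stayed among the 3 closest genes of its member.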

How the data were processed

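RNA-seq libraries of whole plants (3 each of *prmt5*, *prmt4a;4b* and WT, grouped by their titles) were made from 3 µg of total RNA by poly(A) selection and 12 cycles of PCR, with a kit that does not mark strand. Reads were mapped by the authors with TopHat2 2.0.9 on the TAIR10 genome, and the authors deposited raw, whole-number counts per gene (33602), per alternative splicing bin (7973) and per intron (120717). Their other tables hold their own fold changes, FDR values and splicing indexes, made with edgeR 3.4.2, and were not used. The methods speak of more libraries than the 9 analysed here.

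The tests were edgeR's quasi-likelihood F tests (version 4.0.16, R 4.3.3) on the deposited counts, with TMM factors of the genes tested and Benjamini-Hochberg adjustment over all features, each mutant with WT in its own fit and the mutants against each other in a fit of 9 libraries. Genes needed 10 reads on average in 1 genotype, and were called where the adjusted p was below 0.10 and the log2 change exceeded 0.58. For bins and introns the limits were 5 reads, an adjusted p of 0.15, 0.58 for both the log2 change and the log2 splicing index ratio, a gene density over 0.05 reads per base and an index over 0.05. The cut-off values follow the study, but their use and the test differ. Here the read minimum was needed in 1 genotype and the gene density in both genotypes compared. The study asked for the density in all genotypes and used edgeR's exact test for bins and introns. Numbers of calls given here are thus not those of the study. Normalized counts are counts divided by the TMM-scaled library size and multiplied by its mean over libraries. Errors are the SD over libraries, and the SE of log2 changes comes from the fit. Patterns most alike were the 3 genes with the highest Pearson correlation of log2 CPM (prior count 2). Pathway genes are named where called, at most 3 per direction, list and mutant. The members and lists were chosen with earlier results of these data known. The scripts were tested on simulated data. None of the 4 members overlaps another gene of the table.

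Sequences and transcripts were read from RefSeq (TAIR10.1, a later release that keeps the coordinates of the TAIR10 chromosomes), on which 98.7% of the introns of the tables begin with GT and end with AG. Alternatives were DESeq2 1.42.0, DESeq2 size factors in edgeR, scaling without organelle genes, other filters and limits, a joint fit, a replicate block, gene reads as offset and leaving out each library. The set of 6 libraries with at most 2% plastid reads was added after the data were seen. Figures were drawn with matplotlib 3.10.9 in Python 3.11.15.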

Additional observations from a re-analysis of the deposited data

Results flagged for a closer look

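The direct test of *prmt5* against *prmt4a;4b* passed an adjusted p of 0.10 (edgeR) for 3 of the 4 genes. The passes of *HY5* and *COP1* were lost when certain single libraries were left out, with adjusted p up to 0.122 and 0.137, and those of *HY5* and *SPA1* in the 6 libraries with at most 2% plastid reads, with 0.101 and 0.107. *HY5* differed by -0.49 on the log2 scale (adjusted p = 0.0336), lower in all 3 *prmt5* libraries than in any *prmt4a;4b* library. *COP1* differed by 0.48 (adjusted p = 0.0267), higher in all 3 *prmt5* libraries. *SPA1* differed by -0.40 (adjusted p = 0.0244), lower in all 3 *prmt5* libraries. With 3 libraries per genotype, no library was tested for standing apart within its genotype. The share of all genes whose mutant libraries separate in this way was not counted.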

How the results depend on the processing

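Over 180 alternative fits of the 12 gene-level changes of the members, 176 kept their direction and their side of the limits, and no direction reversed. *HYH* met the limits in every alternative in both mutants, with log2 changes of -1.27 to -0.83 in *prmt5* and -1.69 to -1.12 in *prmt4a;4b*. In the 6 libraries with at most 2% plastid reads, 1 *prmt4a;4b* library remains and is assumed to vary like the others. There *HY5* in *prmt4a;4b* over WT came to 0.50, which left 1 member called, and in *prmt5* over *prmt4a;4b* *HYH* came to 0.85 and 1 member was called. Leaving out 1 library, *HY5* in the direct comparison ranged between -0.66 and -0.41, and 0 to 1 members met both limits. Of 1352 alternative values for the pathway lists and their genes, 1208 kept their call or count, 46 lost a call, 98 counts moved and none reversed. Calls were lost in 6 alternatives for *DDA1* in *prmt5* and for *LAF1* and *RBX1A* in the direct comparison, in 5 for *NRT2.1* in *prmt5*, in 3 for *CSN6B* in *prmt5*, *BBX31* and *LHCB1.1* in *prmt4a;4b* and *BBX20*, *BBX30* and *RBCS1A* in the direct comparison, in 2 for *CSN5B* and *SIG5* and in 1 for *COP10* in *prmt4a;4b*.

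No pairing of the libraries by replicate number was detected. Correlations of same-numbered deviations were between -0.11 and 0.12, and those of other pairs between -0.078 and 0.145. With 3 libraries per genotype these values cannot exclude a pairing. With the replicate block all 12 member results of genes were unchanged in call, while the called introns of the members became 1 in *prmt5* and 0 in *prmt4a;4b*. The same 1 and 0 were found at an adjusted p under 0.05, at a mean of at least 10 reads, with no filter and with DESeq2, and leaving out 1 library gave 1 to 3 and 0 to 1. Of all bins, 430 in *prmt5* and 485 in *prmt4a;4b* were higher at an adjusted p under 0.05, against 664 and 748. Of all introns, 1106 were lower in *prmt5*, and 581, 689 and 674 at an adjusted p under 0.05, with no filter and with DESeq2. In *prmt4a;4b* 1666 introns were higher and 1126 lower, against 747 and 487, 862 and 510, and 870 and 538 under those settings, and 1016 to 1672 and 715 to 1217 leaving out 1 library.

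Directions reversed only in bins and introns that were not called. With gene reads as offset these were *HYH* E004 (0.52), *COP1* I006 (0.13), *HY5* I002 (-0.27) and I003 (-0.030) in *prmt4a;4b* and *COP1* I008 (-0.21) in *prmt5*. The offset fit measures the change per gene read, a different quantity from the change in reads of the main fit. Leaving out 1 library, *COP1* I008 ranged between -0.36 and 0.34, *HY5* I003 between -0.44 and 0.28 and *HY5* I001 between -0.12 and 0.66 in *prmt5*, and *COP1* I006 between -0.89 and 0.42 and I008 between -0.27 and 0.44 in *prmt4a;4b*. The cause of the reversals on leaving out 1 library was not tested. Intron results rest on a few reads per library, which limits what could be detected.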
